A study of Mus musculus with 10 samples.

Results

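The second of 2 comparisons in the authors' deposited table was examined for small shifts shared by whole gene families. The table covers 12791 gene names, of which 9255 had a mean level of at least 3 on the log2 CPM scale, a level scaled to library size, and no small RNA name (Snord, Snora, Scarna or Mir). A total of 142 small RNA names were set aside and 3394 other names lay below that level. The 60 functional families examined here held 2651 of the genes in the table, of which 2179 reached the level and 472 did not, and 58 genes belonged to more than 1 family. A further 5 sets were formed from the style of the gene name alone.

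The cells were mouse hematopoietic progenitors of the bone marrow, purified by flow cytometry from the C57BL/6 strain as cells without lineage markers, with c-Kit and without Sca-1. The labels describe 10 bulk RNA sequencing libraries. They are 3 from naive mice without a tumor, 4 of KDR-negative cells and 3 of KDR-positive cells, the last 7 from mice that carried a late stage GL261 tumor, with the stage given as week 4. GL261 is a mouse glioma line. KDR is a receptor for vascular endothelial growth factor, and the series' design text names mice with a GFP knockin at KDR as the tumor hosts. The labels do not say whether the naive mice carried that allele, nor how old the mice were. Nor do they tie replicates to separate animals. The p-values therefore measure only the spread between these samples, which may be technical. The table holds no value per library, and its header names neither the groups compared nor the direction. The sides are therefore called the numerator and the denominator group throughout, and a log2 fold change above 0 means a higher level in the numerator group. Every fold change, mean level and p-value of a single gene below is the one in the authors' deposited table, and the adjusted p is the false discovery rate given there. Neither depth nor replicate spread can be read from it.

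The c-Kit-positive fraction of marrow that lacks lineage markers and Sca-1 is a mixture of committed progenitors of red cells, megakaryocytes, granulocytes and monocytes. Such cells divide fast, so they express ribosomal proteins, chaperones, replication factors and biosynthetic enzymes at high levels. Many of these families are controlled as units, each through a sequence element in the promoters of its members: sterol-regulated factors act on cholesterol genes, HSF1 on heat shock genes, ATF6 on endoplasmic reticulum chaperones, ATF4 on tRNA synthetases, STAT and IRF factors on interferon genes, E2F on replication genes and GATA1 on erythroid genes.

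A selection of promoters of family members is given first, because the families below are described as groups and these elements are what the members of such a group can have in common. They are windows of 100 bases from RefSeq, build GRCm38.p6, chosen after the values had been seen. Each is written 5′ to 3′ on the strand of its gene, with the letters that match the family's element on either strand in capitals. H2-Eb1 and H2-Aa encode class II antigen presentation chains, and the capitals mark the Y box (CTGATTGG).
H2-Eb1, chr17:34305759-34305858, plus strand: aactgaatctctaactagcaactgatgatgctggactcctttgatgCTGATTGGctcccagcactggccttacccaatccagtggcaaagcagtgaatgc
H2-Aa, chr17:34287824-34287923, minus strand: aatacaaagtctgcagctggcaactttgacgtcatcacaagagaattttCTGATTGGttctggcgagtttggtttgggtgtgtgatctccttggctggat
Gars encodes the glycyl-tRNA synthetase, and the capitals mark the amino acid response element (TGATGNAA).
Gars, chr6:55037901-55038000, plus strand: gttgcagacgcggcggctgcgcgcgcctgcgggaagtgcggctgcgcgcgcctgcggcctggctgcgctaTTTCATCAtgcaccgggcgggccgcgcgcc
Hspd1 encodes the mitochondrial chaperonin HSP60, and the capitals mark overlapping matches to the heat shock element (the triplets GAA, TTC and GAA with 2 bases between neighbours).
Hspd1, chr1:55088021-55088120, minus strand: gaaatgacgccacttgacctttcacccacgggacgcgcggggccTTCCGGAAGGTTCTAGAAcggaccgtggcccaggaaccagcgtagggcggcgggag
Creld2 and Hspa5 encode an endoplasmic reticulum folding factor and the chaperone BiP, and the capitals mark the endoplasmic reticulum stress response element (CCAAT and CCACG with 9 bases between them).
Creld2, chr15:88819479-88819578, plus strand: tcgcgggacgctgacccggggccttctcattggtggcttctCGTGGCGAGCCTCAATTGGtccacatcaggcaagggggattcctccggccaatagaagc
Hspa5, chr2:34771984-34772083, plus strand: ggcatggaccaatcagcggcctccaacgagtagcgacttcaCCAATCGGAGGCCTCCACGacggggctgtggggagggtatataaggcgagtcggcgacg
Epor encodes the erythropoietin receptor, and the capitals mark a GATA site (AGATAA).
Epor, chr9:21963578-21963677, minus strand: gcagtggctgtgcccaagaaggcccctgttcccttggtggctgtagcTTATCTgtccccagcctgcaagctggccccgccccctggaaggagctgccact
Oas1g and Oas1a encode enzymes that sense double-stranded RNA, and Isg15 a ubiquitin-like modifier. The capitals mark the interferon-stimulated response element (TTTC and TTTC again with 2 bases between them).
Oas1g, chr5:120887614-120887713, minus strand: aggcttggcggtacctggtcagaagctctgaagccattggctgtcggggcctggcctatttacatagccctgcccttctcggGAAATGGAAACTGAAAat
Oas1a, chr5:120907526-120907625, minus strand: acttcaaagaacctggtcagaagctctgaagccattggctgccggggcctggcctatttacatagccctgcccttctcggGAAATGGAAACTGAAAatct
Isg15, chr4:156200842-156200941, minus strand: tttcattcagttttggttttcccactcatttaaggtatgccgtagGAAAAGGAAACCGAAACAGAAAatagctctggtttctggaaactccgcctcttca
Counts of members with such a match stand below beside each family, with the share of all genes that have one.

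Very few single genes differed in the second comparison. At an adjusted p under 0.05, 14 of the 12791 names (0.109%) passed in the authors' deposited table, and 10 of them were small RNA names. Among the 9255 genes at the level, 3 passed (0.0324%), all of them lower in the numerator group. A p under 0.05 before adjustment was reached by 14 of the 9255 (0.151%), 2 of them higher (0.0216%) and 12 lower (0.13%). Of the 9255 genes, 2056 (22.2%) had a p of exactly 1, and the median p was 0.897. The median log2 fold change over the 9255 genes was 0.022, the middle 50% of genes lay between -0.046 and 0.073, and 59.5% lay above 0.

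The genes that passed were Eef1a1, C1qa and Fcna. Eef1a1, the factor that delivers charged tRNAs to the ribosome, fell by 16.12 on the log2 scale in the authors' deposited table (adjusted p = 4.252e-143). Levels derived from its mean and fold change were 7711 CPM in the denominator group and 0.108 CPM in the numerator group. A value that near to 0 for one of the most abundant transcripts of a cell stands apart from the rest of its family, in which Eef1g lay at 0.03, Eef1b2 at -0.084 and Eef2 at 0.081. The predicted gene Gm6548 shares 30.7% of its 31-base words with Eef1a1 and had a log2 fold change of 0.62 (the authors' p = 0.0165, adjusted p = 1). No source used here says how reads were divided between near-identical transcripts, so Eef1a1 and its copies are uncertain.

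The same uncertainty touches the ribosomal proteins and their processed copies. Rpl34-ps1, a pseudogene that shares 80.9% of its 31-base words with Rpl34, had the largest positive value among the genes at the level, 6.33, with the authors' p of 0.0061 and an adjusted p of 1. Its derived levels were 2.52 CPM in the denominator group and 203 CPM in the numerator group, while Rpl34 itself lay at -0.29. Gm15772 shares 84.8% of its words with Rpl26 and lay at -0.16, against 0.29 for Rpl26. Gm12191 shares 90.3% with Rpl30 and lay at -0.14, against 0.16 for Rpl30. These pairs are shown because the copy and its parent stood on opposite sides of 0. Of 116 predicted or pseudogene names at the level, 75 had a transcript to compare and 11 shared at least 20% of their words with a parent gene. These 11 had a median log2 fold change of -0.13, and 8 lay below 0. Copy and parent lay on the same side of 0 in 6 of the 11 and on opposite sides in 5.

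C1qa and Fcna are genes of tissue macrophages. In the authors' deposited table C1qa, a chain of the first complement component, fell by 2.41 (adjusted p = 0.0195), and Fcna, the ficolin A gene, fell by 2.51 (adjusted p = 0.0374). Their derived levels were 18.1 CPM against 3.41 CPM for C1qa and 17.998 CPM against 3.15 CPM for Fcna, with the denominator group named first. The other C1q chains had values near these in the authors' deposited table without passing, -2.33 for C1qc (adjusted p = 0.0734) and -2.24 for C1qb (adjusted p = 0.0971). In the numerator group the 4 derived levels ran from 3.15 to 3.91 CPM, below the minimum of 3 log2 CPM, so these genes reached it through the denominator group alone. With the adjustment made over the 9255 genes only, Eef1a1 was the single gene to pass, and C1qa had an adjusted p of 0.0919 and Fcna of 0.126.

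The sorted population was checked against the genes of its gate. Kit, the receptor used to select the cells, had a log2 fold change of 0.038 at a mean of 5.90 log2 CPM. In the authors' deposited table, the Sca-1 gene Ly6a, whose product was used to exclude cells, had a mean of 4.77 log2 CPM and a value of -0.015. Reads assigned to Ly6a were thus present in bulk RNA of a population sorted as negative for the protein. Which cells or transcripts gave these reads was not tested. Kdr had a mean of -0.84 log2 CPM, below the level examined, a value of -1.11 and a p of 1.

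Level moved with the fold change over the whole table, and each family described in full below is therefore also given against genes of its own level. The median log2 fold change was -0.035 for genes between 3 and 4 log2 CPM, 0.040 between 5 and 6, 0.059 between 6 and 7, -0.10 between 10 and 11, and -0.11 from 11 up. Below 3 log2 CPM, most genes lay below 0 in every step, from 67.0% between 2 and 3 to 80.3% under 0. A family median after subtraction of the median of genes outside the family in the same step of 1 log2 CPM is called level-matched. Of the 58 families with at least 5 members, 45 had a median above 0 as deposited and 32 had a level-matched median above 0. Transcript length and GC content moved much less with the fold change as deposited. The medians ran from 0.018 to 0.029 over 5 classes of length and from 0.017 to 0.028 over 5 classes of GC. These classes held equal numbers of genes. Over 20 chromosomes the medians ran from 0.0068 to 0.033. Against the median of each gene's level step, the medians rose from -0.012 for the shortest transcripts to 0.020 for the longest. The median level fell from 5.53 to 4.47 log2 CPM over these length classes. For GC the same medians ran from -0.0037 to 0.0049. Families were not matched for length and level together.

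**Figure D1:**
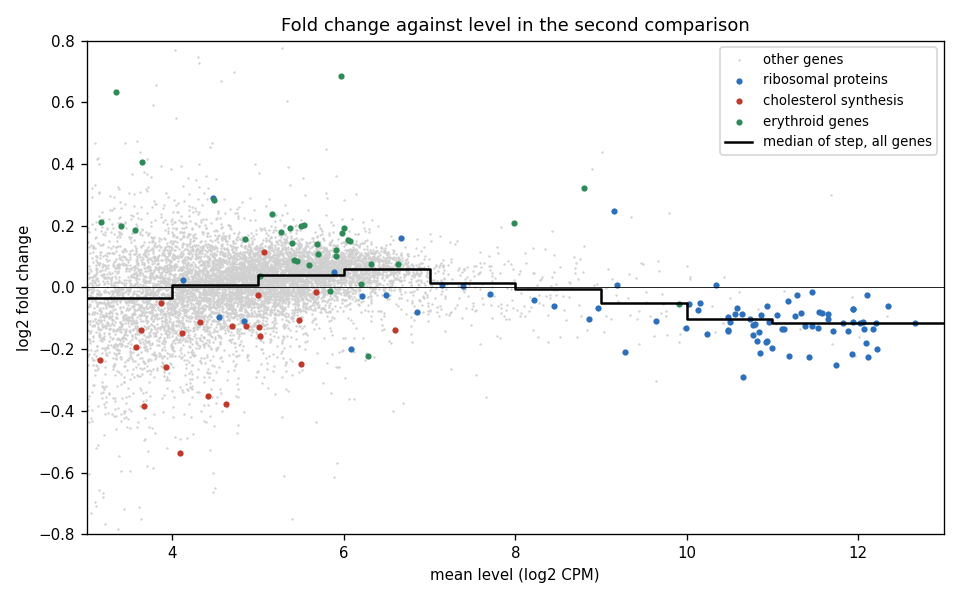
Log2 fold change of the second comparison (y axis) against mean level in log2 CPM (x axis) for single genes, with ribosomal proteins in blue, cholesterol synthesis in red, erythroid genes in green and the median of all genes in each step of 1 log2 CPM as a black line. The ribosomal proteins sit at the right end, where the line lies near -0.11, while the cholesterol genes lie below the line and most erythroid genes above it at middle levels.

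The error that the deposited p-values imply for a single value was larger than most of the family shifts. Set against the step that holds a family's median level, the class II and resident macrophage medians, given below, exceeded it. A standard error can be read back from the p-value and the fold change of a gene, taking the p as that of a normal deviate. For genes with a p under 0.9, its median was 0.60 between 3 and 4 log2 CPM, 0.32 between 5 and 6, and 0.26 from 11 up. Fold changes within a step were spread much less than that, with an interquartile range of 0.19, 0.088 and 0.059 in the same 3 steps. The implied error is therefore not the spread of the deposited values, and the reason for the difference was not tested. No member of any family passed apart from Eef1a1, C1qa and Fcna, and the median p of the members of a family described in full ran from 0.32 to 0.92. A family is accordingly described by how many members lie on each side of 0 and by its median, beside the 59.5% and 0.022 of all genes, with no test over the members. The share of all genes above 0 was itself 72.0% between 5 and 6 log2 CPM and 83.0% between 6 and 7, where many members of the families above 0 lie. Differences between families, or between groups of genes within one, were not tested.

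**Figure D2:**
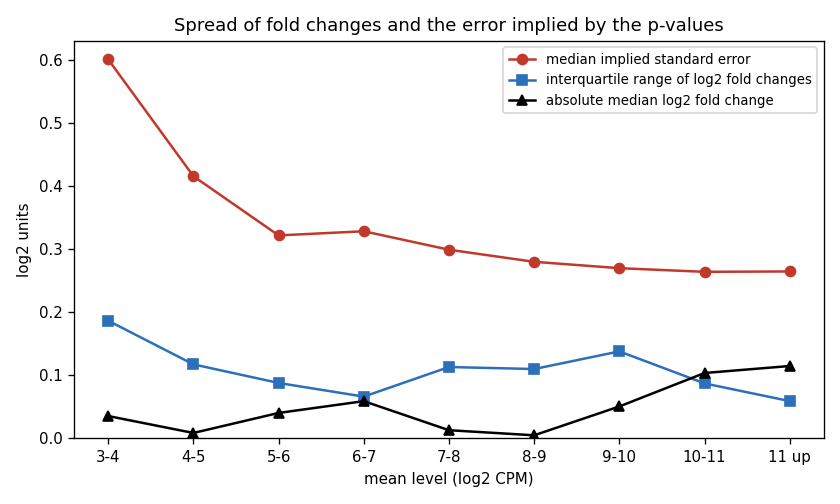
Median standard error read back from the deposited p-values (red circles), interquartile range of the log2 fold changes (blue squares) and absolute median log2 fold change (black triangles), all in log2 units on the y axis, for each step of mean level in log2 CPM on the x axis. The standard error lies above both other measures in every step, at 0.60 in the lowest and 0.26 in the highest.

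In 23 families at least 75% of the members lay on one side of the median of all genes. Against the median of the level step of each member, 17 of the 23 still had 75% on one side. The other 6 were the ribosomal proteins, V-ATPase, endothelial, endoplasmic reticulum, primary granule and proteasome genes. The larger side was above that median in 14 of them, which cover protein synthesis, folding and turnover, DNA replication, heme and the red cell. It was below in 9, which cover ribosomal proteins, cholesterol synthesis, megakaryocytes, lymphocytes, macrophages, class II presentation, stem cell genes and endothelium. The other 35 families with at least 5 members had medians from -0.044 to 0.13.

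**Figure D3:**
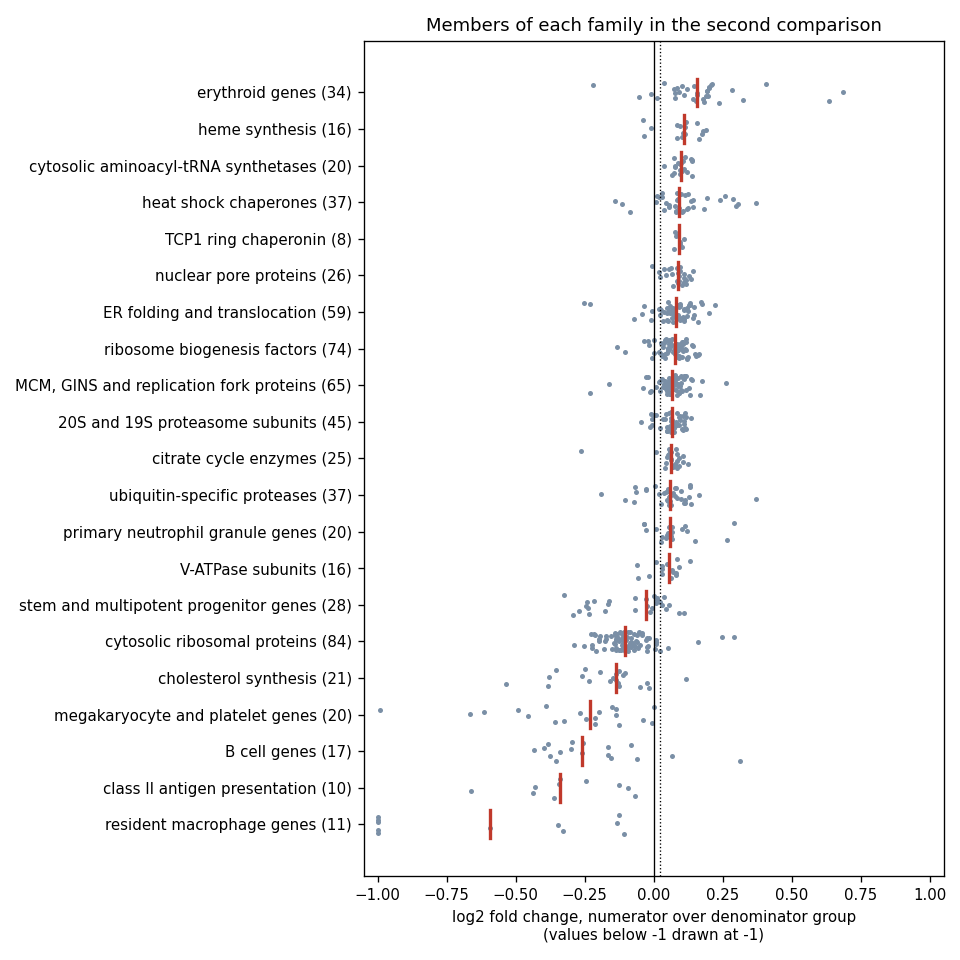
Log2 fold change (x axis) of every member (grey points) of the families in which at least 75% of at least 8 members lay on one side of the median of all genes, with the number of members in brackets, the family median as a red bar, 0 as a solid line and the median of all genes, 0.022, as a dotted line. Families from erythroid genes to V-ATPase subunits have medians between 0.16 and 0.056, and those from stem cell genes to resident macrophage genes between -0.027 and -0.59.

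Among the genes of protein synthesis, the enzymes and assembly factors lay slightly above 0 and the ribosomal proteins below it. All 20 cytosolic aminoacyl-tRNA synthetases, which charge tRNAs with amino acids, lay above 0 in the authors' deposited table, with a median of 0.097 and a level-matched median of 0.052. Their values ran from 0.036 for Farsa to 0.14 for Gars (the authors' p = 0.64) and Mars (the authors' p = 0.61), so the whole family covered about 0.1 on the log2 scale. None of the 20 passed. A match to the amino acid response element was present in 5 of the 13 with a RefSeq promoter (38.5%), against 2.48% of 7486 genes at the level, and the members with a match had a median of 0.11 and those without one of 0.096.

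Factors that build ribosomes in the nucleolus showed the same side. Of 74 ribosome biogenesis genes, 67 lay above 0, with a median of 0.077 and a level-matched median of 0.041. Bysl, a factor of small subunit assembly, lay at 0.16, Heatr1, a factor of early ribosomal RNA processing, at 0.15, and Gar1, a part of the ribonucleoprotein that modifies ribosomal RNA, at 0.14. The most abundant members were near 0, with 0.034 for Npm1 (nucleophosmin) and -0.0075 for Fbl (fibrillarin). The E box CACGTG, which MYC and MAX bind, was found in 11 of 63 promoters (17.5%) against 12.6% of all, a share near the background. Translation initiation factors lay above 0 in 41 of 53 cases with a median of 0.068 and a level-matched median of 0.023, and Eif5, which triggers GTP hydrolysis at the start codon, had the highest value, 0.30.

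Cytosolic ribosomal proteins formed the largest of the 9 families on the other side, and at their level most genes lay there. Of 84 members, 75 lay below 0, with a median of -0.11, and no member passed in the authors' deposited table. The large subunit had a median of -0.093 over 49 genes and the small subunit of -0.11 over 34. Their level-matched median was -0.0335, and against the median of all genes in the step, themselves included, 35 lay above and 48 below. They made up 26 of the 37 genes between 10 and 11 log2 CPM and 36 of the 46 from 11 up, so the ribosomal proteins and the other genes of that level can hardly be told apart. The lowest were Rpl34 at -0.29 and Rpl38 at -0.25, and the most abundant, Rpl41, lay at -0.11. Rpl26 at 0.29 and Rps2 at 0.25 were the highest, and Rpl26 has the near-identical copy named above.

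Proteins of the nuclear pore, the channel between nucleus and cytoplasm, lay above 0 in 25 of 26 cases, with a median of 0.089 and a level-matched median of 0.047. Nup188 (0.14) and Nup205 (0.13), large scaffold proteins of the inner ring, and Tpr (0.13), a protein of the nuclear basket, had the highest values in the authors' deposited table. The only member below 0 was Nupl2 at -0.0055, which was also expressed at only 3.7 log2 CPM. Splicing proteins were divided. The SR and hnRNP proteins were split 19 above and 17 below 0, with a median of 0.0052 that became -0.033 when matched for level, and Srsf5, a splicing regulator, lay at -0.36 (the authors' p = 0.19). The Sm, LSm and U snRNP proteins had a median of 0.042 and a level-matched median of -5.374e-04.

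Chaperones had some of the most uniform values. All 8 genes of the TCP1 ring chaperonin, which folds actin and tubulin, lay between 0.07 and 0.11 in the authors' deposited table, with a median of 0.092 and a level-matched median of 0.0335. Cct6a had the highest value, 0.11 (the authors' p = 0.72), and Cct2 the lowest named here, 0.072. Of 37 heat shock chaperones and co-chaperones, 34 lay above 0, with a median of 0.093 and a level-matched median of 0.046.

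All 11 genes of HSP70, HSP90, HSP60 and HSP110 type lay above 0, and above the median of their level step, with a median of 0.24. The lowest was the mitochondrial co-chaperonin Hspe1, at 0.028. DnaJ co-chaperones, which present clients to HSP70, lay above 0 in 13 of 15 cases with a median of 0.056. Hspa8, the constitutive HSP70, had derived levels of 2942 CPM in the denominator group and 3620 CPM in the numerator group, a log2 fold change of 0.30 (the authors' p = 0.38). Hsph1 (HSP110) lay at 0.31, Hspa4l at 0.29, Hsp90aa1 at 0.24 and the inducible Hspa1b at 0.37 (the authors' p = 0.59). None of these values came near the threshold. A heat shock element, as marked above in Hspd1, was found in 4 of 29 promoters of the family (13.8%) and in 0.614% of all. The medians of members with and without one were 0.11 and 0.086.

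Genes of protein folding and import in the endoplasmic reticulum lay above 0 in 52 of 59 cases, with a median of 0.082 and a level-matched median of 0.031. Against the median of their level step, 41 of the 59 (69.5%) were higher, under the 75% used here. Creld2 had the highest value, with derived levels of 58.2 CPM in the denominator group and 68.0 CPM in the numerator group and a log2 fold change of 0.22 (the authors' p = 0.48). Sdf2l1, a partner of BiP, lay at 0.20 and Pdia4, a disulfide isomerase, at 0.17, while Dnajb9, a co-chaperone, was lowest at -0.25. Hspa5 lay at 0.089. The endoplasmic reticulum stress response element was found in 9 of 49 promoters of the family (18.4%), among 13 of all 7486 (0.174%), and members with it had a median of 0.11 against 0.076 for those without. The letters CCAAT at its start are, read on the other strand, also part of the Y box.

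In the proteasome, which degrades ubiquitin-tagged proteins, the regulatory cap stood above the catalytic core. All 20 genes with Psmc or Psmd names, counted here as the 19S cap, lay above 0, with a median of 0.079. They include Psmd5, Psmd9 and Psmd10, which encode assembly chaperones rather than subunits. In the 20S core, 12 of 17 lay above 0, with a median of 0.058. Psmd13 (0.14) and Psmd4 (0.12), a ubiquitin receptor, had the highest values in the authors' deposited table, and Psmd2 lay at 0.11. The 45 members of the family also include assembly factors (Psmg names) and activators (Psme names). Of these 45, 39 lay above 0, with a median of 0.066 that became 0.017 level-matched. Against the median of their level step, 32 of the 45 (71.1%) were higher. Ubiquitin-specific proteases, a family named for removal of the tag, lay above 0 in 30 of 37 cases. Their median was 0.060 and their level-matched median 0.039. The highest value was that of Usp18, an interferon-induced gene, at 0.37 (the authors' p = 0.51). E2 conjugating enzymes (18 of 30 above 0, median 0.021), F-box proteins (26 of 39, 0.025) and TRIM proteins (19 of 30, 0.019) were close to the median of all genes.

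Cholesterol synthesis stood apart from the other metabolic families. Of its 21 genes, 20 lay below 0, with a median of -0.14 and a level-matched median of -0.16, and matching for level thus moved it further from 0. Insig1, which holds the sterol sensor in the endoplasmic reticulum, had derived levels of 27.9 CPM in the denominator group and 21.5 CPM in the numerator group, a log2 fold change of -0.38 (the authors' p = 0.34). Enzymes of the pathway had a range of values: Fdft1 (squalene synthase) at -0.38, Sc4mol at -0.35, Cyp51 at -0.26 and Idi1 at -0.25.

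Sterol genes without a large value were near 0 rather than above it. Acat2 lay at -0.016, and Srebf2, which encodes the transcription factor of the pathway, at -0.10. Ebp, an isomerase of the late pathway, was the single gene above 0, at 0.12 (the authors' p = 0.72). None of the 21 passed, against 0.0324% of all genes. The sterol regulatory element TCACNCCAC was in none of the 15 promoters at hand and in 1.35% of all, which says only that these letters are not in these windows.

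Heme synthesis lay on the other side, together with the red cell genes that use its product. Of 16 genes, 13 lay above 0, with a median of 0.11 and a level-matched median of 0.056. Cpox (0.19) and Uros (0.18) are enzymes of the porphyrin steps, and Abcb10 (0.16) and Slc25a38 (0.16) are mitochondrial transporters needed for heme. The lowest was Iscu, the scaffold for iron-sulfur clusters, at -0.038. Citrate cycle enzymes lay above 0 in 24 of 25 cases, with a median of 0.063 and a level-matched median of 0.018. Dlat, of the pyruvate dehydrogenase complex, lay at 0.12 and Cs, citrate synthase, at 0.11, and Pdk2, an inhibitory kinase of that complex, was the only one below 0, at -0.26. Respiratory chain subunits were nearer to the median of all genes, with medians of 0.037 for complex I, 0.014 for complexes III and IV and 0.032 for ATP synthase. Matched for level, these were -0.0034, -0.026 and -2.877e-04. Subunits of the V-ATPase, which acidifies lysosomes, lay above 0 in 13 of 16 cases, with a median of 0.056 that was 0.0093 level-matched, and 10 of the 16 lay above the median of their level step.

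DNA replication and mitosis were not shifted alike. Of 65 genes of the replication fork and its licensing, 58 lay above 0, with a median of 0.066 and a level-matched median of 0.020. All 6 subunits of the MCM2 to MCM7 helicase lay above 0 in the authors' deposited table, from 0.058 for Mcm7 to 0.12 for Mcm2. The S phase cyclins Ccne2 (0.26) and Ccne1 (0.17) had the highest values and Pold4, a small polymerase subunit, the lowest, -0.23. An E2F site, TTTNGCGC, was in 14 of 53 promoters (26.4%) against 3.41% of all, with medians of 0.086 in members with it and 0.058 in those without. Mitosis genes were split 48 above and 44 below 0, with a median of 0.0066, which became -0.0228 when matched for level.

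Replication-dependent histones, which package newly made DNA, had a median of 0.13 over 41 genes, with 30 above 0, and a level-matched median of 0.13. The 7 H3 genes all lay above 0, from 0.17 for Hist2h3b to 0.47 for Hist1h3b (the authors' p = 0.38). Hist1h2ao had the highest value of the family, 0.87 (the authors' p = 0.17), and Hist1h2ap the lowest, -0.33. Of the 41, 4 reached the minimum level through the numerator group alone, among them Hist1h2ao and the H3 genes Hist1h3i and Hist1h3g, and without these 26 of 37 lay above 0. These messages end without a poly(A) tail, and many are close copies of each other, so the division of reads among them is uncertain.

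Erythroid genes had the highest median of all families as deposited, while the histones were higher when matched for level. Of 34 genes, 31 lay above 0, with a median of 0.16 and a level-matched median of 0.12. In bulk RNA, fewer cells of a type and less RNA per cell cannot be told apart, here and for the lineages that follow. All 20 genes of the red cell membrane and surface lay above 0, with a median of 0.18. Slc4a1 (band 3) lay at 0.63 (the authors' p = 0.24), but reached the minimum level through the numerator group alone, and without it 30 of 33 erythroid genes lay above 0. The others include Add2 at 0.24, Epor at 0.19 and Tfrc, the transferrin receptor, at 0.18.

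The globins did not follow as one. Hbb-b1 had derived levels of 48.0 CPM in the denominator group and 77.1 CPM in the numerator group, a log2 fold change of 0.68 (the authors' p = 0.15), and Hbb-b2 lay at 0.32. The alpha chains lay below 0, at -0.055 for Hba-a1 and -0.22 for Hba-a2. The alpha chain genes are close copies of each other, as are the beta chain genes, so the division within each pair is uncertain. The regulators Klf1 (0.19) and Gata1 (0.10) were above 0. A GATA site was in 8 of 22 promoters of the family (36.4%) against 7.64% of all, with medians of 0.16 with a match and 0.13 without.

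Megakaryocyte and platelet genes lay on the opposite side from the erythroid genes, with which they share a progenitor. Of 20 genes, 19 lay below 0, with a median of -0.23 and a level-matched median of -0.24. Pf4, the platelet chemokine, had derived levels of 71.8 CPM in the denominator group and 46.9 CPM in the numerator group, a log2 fold change of -0.61, and the authors' p of 0.0502 was the smallest of the family. Treml1, a platelet receptor, was lowest at -0.99 (the authors' p = 0.0649), followed by Sdpr (-0.66), Gp9 (-0.49) and the integrin Itgb3 (-0.39). Itga2b, the partner of Itgb3, lay at -0.21, and Fli1, a transcription factor shared with other lineages, at 0.0017. None passed after adjustment. Treml1, Sdpr and Mmrn1 reached the minimum level through the denominator group alone, and without them 16 of 17 lay below 0, with a median of -0.21.

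**Figure D4:**
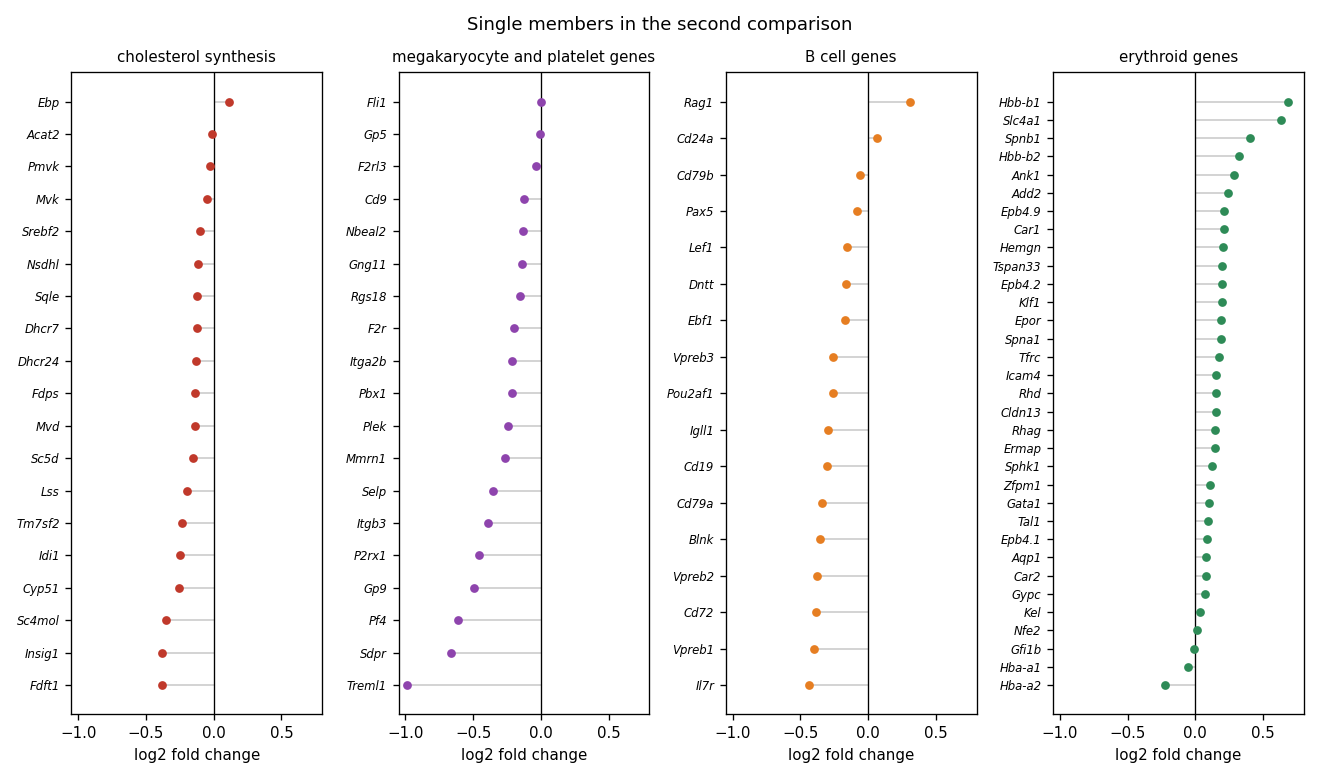
Log2 fold change (x axis) of the reported members at the level for cholesterol synthesis, megakaryocyte and platelet, B cell and erythroid genes, in 1 panel each, sorted by value, with a grey line from 0. In the first 3 panels all but 1, 1 and 2 genes lie below 0, and in the fourth all but 3 lie above it.

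Lymphoid genes were below 0 as well, though the sort removes cells with lineage markers. Of 17 B cell genes at the level, 15 lay below 0, with a median of -0.26 and a level-matched median of -0.30. The 6 genes of the pre-B cell receptor all lay below 0, with a median of -0.32. Vpreb1, a surrogate light chain, had derived levels of 108 CPM in the denominator group and 81.9 CPM in the numerator group, and Igll1, the other part of that chain, lay at -0.29 (the authors' p = 0.28). Il7r, the interleukin 7 receptor, was lowest at -0.43, and Rag1, a recombinase, was highest at 0.31. Of 28 T and NK cell genes in the table, 6 reached the level and 5 lay below 0, with a median of -0.37 and a level-matched median of -0.36. Ccl5, a chemokine, lay at -1.24 (the authors' p = 8.408e-04, adjusted p = 0.51) and Tcf7 at -0.77. Tcf7 reached the minimum level through the denominator group alone.

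Class II antigen presentation lay below 0 in all 10 genes, with a median of -0.34 and a level-matched median of -0.35. The median was -0.185 over the 6 genes at log2 CPM of 5 or more. H2-Eb1 was lowest in the authors' deposited table, with derived levels of 27.1 CPM in the denominator group and 17.1 CPM in the numerator group and a log2 fold change of -0.66 (the authors' p = 0.16). H2-Aa lay at -0.44, H2-Ob at -0.43 and Cd74, the invariant chain, at -0.36, while H2-DMa (-0.094) and H2-DMb1 (-0.069), of the peptide exchange factor, were near 0. The Y box letters CTGATTGG were found in H2-Aa, H2-Eb1 and H2-Oa, 3 of the 8 with a promoter (37.5%, against 7.12% of all). These 3 had a median of -0.44 against -0.13 for the other 5. For those 5, the search says only that these exact letters are not in these windows. B cells and macrophages both express these genes, and the marker lists of both moved to the same side. Their part in the class II values was not tested.

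Resident macrophage genes had the lowest median of all families at the minimum level used, but not at log2 CPM of 4 or more. The 11 genes at the level, out of 34 in the table, all lay below 0, with a median of -0.59 and a level-matched median of -0.56. At all levels, none of the 34 lay above 0 and the median was -1.48. The derived levels of these 34 summed to 270 CPM in the numerator and 418 CPM in the denominator group. Beside the C1q genes and Fcna, Hmox1, which degrades heme, lay at -1.82 (the authors' p = 2.317e-04, adjusted p = 0.16). Like the C1q genes and Fcna, it reached the minimum level through the denominator group alone, so 5 of the 11 did. The median was -0.23 over the other 6, and also over the 6 genes at log2 CPM of 4 or more. The remaining members are expressed in many other cells too and had smaller values, from -0.59 for Lgmn, a lysosomal protease, to -0.11 for Apoe. Lysosomal hydrolases as a family were split 28 above and 29 below 0, with a median of -0.0022.

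Among myeloid genes of the progenitors themselves the values were small. Primary granule genes of neutrophils lay above 0 in 17 of 20 cases, with a median of 0.059 and a level-matched median of 0.013, and 14 of the 20 lay above the median of their level step. Fcnb, a ficolin of immature neutrophils, was highest at 0.29 (the authors' p = 0.36), followed by Ctsc at 0.27 and Mpo at 0.15. Late granule genes lay above 0 in 11 of 17 cases with a median of 0.062 and a level-matched median of 0.0030, and the highest were Camp at 0.78 (the authors' p = 0.18) and Ngp at 0.75 (the authors' p = 0.27). Monocyte and dendritic cell genes (18 of 30 above 0, median 0.024) and mast cell, basophil and eosinophil genes (10 of 18, median 0.0071) were close to the median of all genes.

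Stem and multipotent progenitor genes were shifted in part. Of 28 genes, 17 lay below 0, with a median of -0.027 and a level-matched median of -0.068, and 4 lay above the median of their level step. The median ran from -0.14 with no minimum level to -0.0025 at log2 CPM of 5 or more. The 7 genes Meis1, Hlf, Hoxa9, Hoxa7, Mycn, Gata2 and Erg, transcription factors of the stem cell program that were grouped after their values had been seen, all lay between -0.27 and -0.16. Hoxa7 reached the minimum level through the denominator group alone. Angpt1, a ligand of the endothelial and stem cell receptor Tie2, lay at -0.29. Other regulators of transcription on the same list were left out of that group of 7. They include Tal1 at 0.090, Lmo2 at 0.054, Myb at 0.0079 and Fli1 at 0.0017. Cdk6 lay at 0.11. Endothelial genes, markers of the cell type in which KDR is best known, reached the level in 6 of 18 cases, with 4 below 0, a median of -0.0073 and a level-matched median of -0.0395.

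Interferon response genes were mixed, with the enzymes of the OAS family at one end. Of 51 genes, 36 lay above 0, with a median of 0.076 and a level-matched median of 0.077. The 4 OAS genes all lay above 0, with a median of 0.50. Oas1g had derived levels of 10.8 CPM in the denominator group and 17.1 CPM in the numerator group, a log2 fold change of 0.65 (the authors' p = 0.19), and Oasl1 lay at 0.59, Oas1a at 0.40 and Oasl2 at 0.13. Oas1g and Oas1a are neighbours of similar sequence, as the promoters above show, and share reads where the counting cannot part them. Isg15 lay at 0.36 and Irf7, the amplifying transcription factor, at 0.35.

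The class I presentation genes within the interferon list had a median of 0.029, with 5 of 8 above 0, and Stat2, a subunit of the interferon-activated factor, was lowest at -0.34 (the authors' p = 0.34) in the authors' deposited table. The interferon-stimulated response element was in 17 of 41 promoters (41.5%) against 3.70% of all. Members with it had a median of 0.074 and those without of 0.062, so the share with the element was high while the medians were close.

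Several large families showed no common side. The 172 Zfp zinc finger proteins were split 78 above and 94 below 0, with a median of -0.013 and a level-matched median of 2.325e-04. Lysine methyltransferases and demethylases (34 of 57 above 0, median 0.025), SWI/SNF, CHD and INO80 remodelers (28 of 44, 0.022), histone acetylases and deacetylases (29 of 55, 0.013) and Mediator subunits (19 of 29, 0.022) lay at the median of all genes. Sorting proteins of the Vps and Snx type had a median of 0.0090 and Rab GTPases of 0.026. The 138 solute carriers, 80 of them above 0, had a median of 0.024. Sets formed only from the style of a name, such as RIKEN clones, Tmem, Ccdc and Fam, had medians from -0.053 to 0.028, the lowest for the predicted genes. Matched for level, the medians were -0.0454 for Ccdc, -0.0324 for predicted genes, -0.0069 for RIKEN clones, -0.0031 for Fam and -0.0016 for Tmem. Of 63 Ccdc names, 45 lay below the median of all genes. Their level-matched median was thus further from 0 than the 0.041 of the ribosome biogenesis genes.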

How the data were processed

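RNA of sorted marrow progenitors was sequenced in 10 libraries, assigned to groups from their titles. Bowtie 0.12.2 and the genome build mm8 are named, without roles, per the submitters' processing notes. The counting program, annotation and test are not stated in the sources used. The authors deposited 1 table with a log fold change and a mean log CPM per gene for 2 comparisons. Both are read as log2 values of the authors. Under base 2, the denominator levels derived from both comparisons differ by a median absolute deviation of 0.0087 over 8980 genes. It was 0.0164 under base e and 0.15 under base 10. All were taken in log2 units, which alone makes them larger for a larger base, so the bases are compared only roughly. The match of the denominator levels shows that both comparisons share their denominator group, and the first was used for nothing else. The p-values and false discovery rates were deposited by the authors, and the Benjamini-Hochberg adjustment recomputed from the p-values differs by at most 5.2e-14. The deposited CPM of the second comparison sum to 732013. Depth, replicate spread, paired fits and the planned per-library tests could not be had from a table without values per library.

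Members were the 9255 genes at log2 CPM of 3 or more without small RNA names, and families were lists of symbols or name patterns. The members and lists were chosen with earlier results of these data known. A gene was called at an adjusted p under 0.05. Families with at least 75% of at least 5 members on one side of the median of all genes were described in full. Genes named were Kdr, Kit and Ly6a, those called, those of largest change with an unadjusted p under 0.05, and for each family the 4 of smallest p, the lowest, the highest and the 2 most abundant. Others, the groups of genes within families and the promoter elements were chosen after values were seen. A few genes that the rule names are not reported here. Group levels in CPM were derived from mean and fold change with equal weights. The level-matched medians used steps of 1 log2 CPM, pooled from 11 up. Data were simulated for the second comparison with 9255 genes and noise with an SD of 0.1. The level-matched medians of 8 families given a shift of 0.1 missed it by up to 0.0717. For 31 families given no shift the error was up to 0.0459. Many level-matched medians given above were smaller than that, such as 0.020 for replication and 0.017 for the proteasome. By this measure such values cannot be told from no shift. Promoters, 250 bases before to 50 after a start, came from RefSeq GRCm38.p6, in which 99.3% of the genes matched by symbol or synonym, and 7486 had a promoter, searched on both strands. Transcript lengths, GC and shared 31-base words came from GENCODE M21, in which 90.5% of the genes matched. Python 3.11.15, pandas 2.3.3, numpy 2.4.6 and scipy 1.17.1 were used. No alternative needing values per library was run.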

Additional observations from a re-analysis of the deposited data

How the results depend on the processing

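No paired analysis was possible because the deposited table holds no value per library; for the same reason fits without single replicates, with a replicate block, or with other normalizations of counts were not run. The limits are a header without group names, an error per gene, as implied by the p-values, above most shifts, and a fold change that moves with level. The number of genes called at the level, 3, became 14 with an unadjusted p under 0.05, 5 at a false discovery rate under 0.1, and 1 with the adjustment over these genes alone. The number of families described in full, 23, ran from 18 to 26 over its alternatives, 18 being the count matched for level. Of 271 alternative medians of these families, 257 moved by less than 1 SD of the members' values. That SD exceeded the median itself in several families, so moves within it could be large. Centred on all genes of the same level step, the replication median went from 0.0661 to 0.0191 and the V-ATPase median from 0.0558 to 0.0093. With no minimum level the resident macrophage median went from -0.5942 to -1.4753. The other 14 alternatives moved by more than 1 SD and are given here. Centred on all genes of the same level step, the ribosomal median was -0.01, the tRNA synthetase median 0.0514, the nuclear pore median 0.0468, the proteasome median 0.0166 and the TCP1 ring median 0.0332. Centred on genes outside the family, an alternative added after the data were seen, the last 4 were 0.0516, 0.047, 0.0167 and 0.0335. The TCP1 ring median was 0.0698 centred on the median of all genes, and, added later, 0.0696 within classes of GC and 0.0687 within classes of length. The resident macrophage median was -2.0272 without the members of other families, and the endothelial median -0.2158 with no minimum level, where the megakaryocyte median was -0.37 and the T and NK cell median -0.76. An alternative added after the data were seen kept only members whose derived level reached the minimum in both groups, and its effect stands beside the families it moved most. The mitosis median, 0.0066, changed sign to -0.0157 centred on all genes, -0.0223 and -0.0228 matched for level with and without the family's own genes, -0.0068 as a mean, -0.0191 within classes of GC and -0.016 within classes of length. The cause of these changes was not tested, except that centring subtracts the median of the genes compared with.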

Other observations

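Several genes outside the families had among the smallest p-values at the level, and those named were chosen after their values had been seen. Tsc22d3 (-0.61, the authors' p = 0.0202), Ddit4 (-0.94, the authors' p = 0.0175) and Arrdc3 (-1.02, the authors' p = 0.0111) lay below 0 in the authors' deposited table, each with an adjusted p of 1. Tsc22d3 is a classical glucocorticoid-induced gene, Ddit4 an inhibitor of mTORC1 and Arrdc3 an arrestin-like adaptor. Over 18 genes grouped as glucocorticoid and FOXO response genes, 15 lay below 0 and 3 above, with a median of -0.20. Their values ran from -1.02 for Arrdc3 to 0.075 for Fkbp5, and the group was not tested.

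Feedback phosphatases of the MAP kinase pathway, also chosen after their values had been seen, were split. Dusp5 (-0.70), which reached the minimum level through the denominator group alone, Dusp6 (-0.53) and Dusp2 (-0.42) lay below 0 in the authors' deposited table, while over 10 DUSP genes the median was 0.0059, with 6 above 0.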
